A study of Mus musculus with 4 samples.

Results

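The genes described here encode the subunits of glutamate, GABA and glycine receptors, the proteins through which neurons receive fast and modulatory chemical signals. They were chosen by gene symbol alone, and the rule found 48 of the 48795 genes in the table. It took AMPA, NMDA, kainate and delta glutamate receptor genes, the metabotropic glutamate receptor genes, GABA-A genes of the alpha, beta, gamma, delta, epsilon and theta types, and GABA-B and glycine receptor genes. RNA came from the telencephalon, the embryonic forebrain, of C57BL/6 mouse embryos at embryonic day 14. The 2 Ctcf-null libraries carried floxed Ctcf, flanked by loxP sites for excision, and NestinCre, a Cre recombinase driven by Nestin sequences and active in neural progenitors. The 2 control libraries carried floxed Ctcf without the recombinase. Each library is numbered 1 or 2, and libraries with the same number form a pair.

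In the forebrain, AMPA and kainate receptors open cation channels to glutamate, NMDA receptors admit calcium and need a co-agonist, and metabotropic receptors act through G proteins. GABA-A and glycine receptors are chloride channels built of several subunits each. In immature neurons, whose chloride is high, opening them often depolarizes the cell, and GABA and glutamate act on progenitors and migrating neurons before most synapses form. CTCF, the protein removed in the mutants, binds DNA and with cohesin anchors chromatin loops.

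The libraries held 25519331 to 43812558 reads. Ctcf was at 38.89 and 61.96 normalized read counts in Ctcf-null libraries 1 and 2, against 436.72 and 1133.21 in control libraries 1 and 2. The normalized read count is the authors' unit, reads divided by a size factor per library and not by gene length. All 12 telencephalic marker genes had reads in every library, and 1 of them rose and 5 fell in Ctcf-null libraries. The pairs stood apart from each other: the 10 genes with most reads took 21.9% and 26% of the reads in the Ctcf-null and control library of pair 1, against 8.37% and 8.82% in pair 2. The 12 telencephalic genes summed to 7454 and 18630 normalized counts in Ctcf-null libraries 1 and 2 and to 8807 and 25700 in control libraries 1 and 2. Single genes differed between the pairs by more and by less than that sum. Of the 12, the cortical progenitor gene Emx1 differed most, at 96.87 and 1292.64 in Ctcf-null and 134.31 and 2268.93 in control libraries, while Eomes was at 634.98 and 816.40 in Ctcf-null and 723.12 and 1070.67 in control libraries. Genes of the mid- and hindbrain and spinal cord (En1, En2, Pax2, Gbx2 and 6 Hox genes) summed to 66.5 and 94.7 in Ctcf-null and 35.6 and 68.8 in control libraries. Without Gbx2, which held most of that sum in pair 2, the other 9 summed to 50.9 and 21.9 in Ctcf-null and 31.1 and 17.5 in control libraries. Of the 10, 2 had enough reads to be tested, and Hoxb5 rose while Gbx2 did not pass. The list leaned higher in Ctcf-null libraries, and the genes not tested had few reads. En1, Gbx2, Hoxb5 and Hoxc8 were higher in both pairs, and En2, Hoxb4 and Hoxc6 in pair 1 only. Hoxb6 and Hoxb8 were lower in pair 1 and without reads in pair 2, and Pax2 was lower in pair 2 only. Hoxb5 was at 20.51 and 9.72 in Ctcf-null and 4.45 and 3.75 in control libraries. Hoxb8 was at 0.71 and 0 in Ctcf-null and 3.56 and 0 in control libraries. Pax2 was at 4.95 and 1.21 in Ctcf-null and 4.45 and 6.25 in control libraries. Hemoglobin and other red cell genes summed to 910900 and 599900 in Ctcf-null and 1316000 and 553800 in control libraries.

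Between genotypes, 11 of the 43 subunit genes that could be tested passed the threshold, 5 of them higher and 6 lower in Ctcf-null telencephalon. The AMPA receptor genes Gria1 and Gria4, the kainate receptor gene Grik2, the metabotropic receptor gene Grm5 and the GABA-A receptor genes Gabra2 and Gabra5 fell, by 1.24-fold (Gabra2) to 1.56-fold (Grik2 and Gabra5). The NMDA receptor gene Grin2b, the kainate receptor gene Grik1, the GABA-A receptor gene Gabra4 and the glycine receptor gene Glra3 were among those that rose, by 1.27-fold (Grik1) to 2.16-fold (Glra3). In none of the 8 receptor classes did every tested gene pass in this fit. The median log2 fold change was 0.08 over the 43 genes and -0.02 over all 22158 genes tested.

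These calls come from edgeR's quasi-likelihood test with the pair as a term (the paired fit), adjusted by the Benjamini-Hochberg method over all genes tested at a threshold of 0.05. Rose and fell refer to genes past it, and a fold change is Ctcf-null over control. In this fit 25.6% of the subunit genes tested were called (5 of 43 higher, 6 of 43 lower), against 11.9% of all genes tested (4.8% higher, 7.13% lower). Calls were more frequent at higher levels. Of the 26 subunit genes with a mean of 100 normalized counts or more, 10 were called (38.5%), against 17.3% of all genes at that level. Of the 17 tested below that mean, 1 was called (5.88%). Over all genes, 2643 of 22158 were called at any level, and 2175 of 12549 at that mean or more. DESeq2 with the pair as a term called 3 of the 39 subunit genes to which it gave an adjusted p (7.69%; 1 higher and 2 lower), against 4.89% of all such genes (1.7% higher, 3.19% lower). limma on log2(normalized count + 1) with the pair called 9 of the 43 (3 higher and 6 lower), against 13.7% of all genes (3.67% higher, 10.1% lower). Without the pair as a term, 0 genes passed in edgeR or limma, with 174 and 170 genes at an unadjusted p under 0.05, none of them a subunit gene. Whether each library was made from its own embryo is not stated, so the p-values reflect the variation among these 4 libraries alone, which could be technical.

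**Figure D1:**
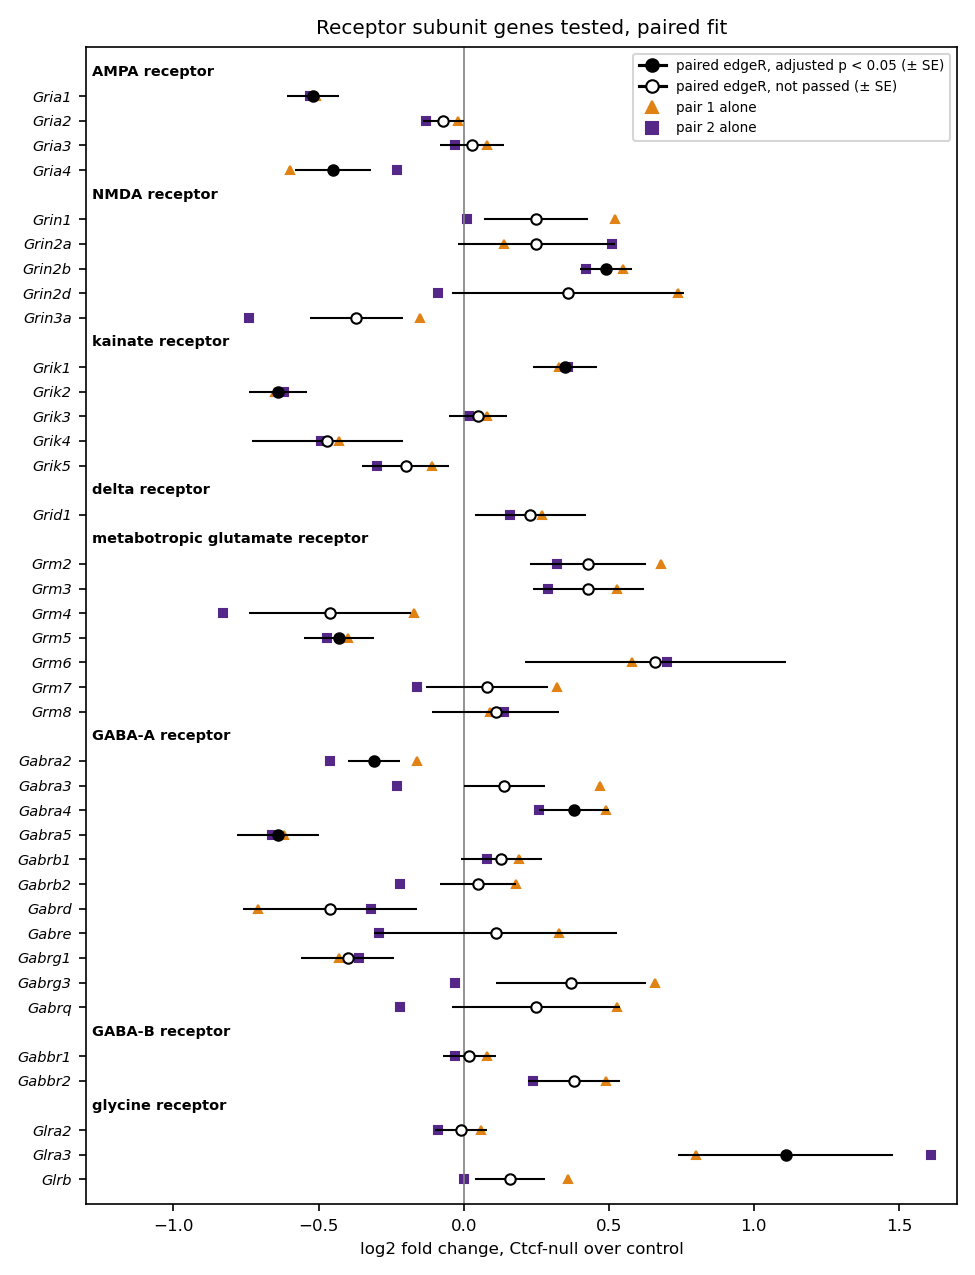
Log2 fold change (x axis, Ctcf-null over control) of 38 of the 43 subunit genes tested, grouped by receptor class. Circles with bars are the paired fit ± SE, filled where the adjusted p was under 0.05 (10 genes), and triangles and squares are pairs 1 and 2 alone. Filled circles lie on both sides of 0 in the kainate and GABA-A classes.

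RefSeq promoters were at hand for 32 of the 48 genes and for 6 of the 11 called. The 250 bases before the annotated start are printed for 3 genes that fell and 1 that rose, to show the sequence around genes that moved in opposite directions. They run 5′ to 3′ on the gene's strand, in build GRCm38.p6. Capitals mark matches on either strand to a CTCF core (CC, any 3 bases, AG, any 2 bases, GGC), an E-box preferred by NeuroD and neurogenin factors (CAGATG) or a GC box (GGGCGG).
Grik2 (fell), minus strand, chr10:49788755-49789004: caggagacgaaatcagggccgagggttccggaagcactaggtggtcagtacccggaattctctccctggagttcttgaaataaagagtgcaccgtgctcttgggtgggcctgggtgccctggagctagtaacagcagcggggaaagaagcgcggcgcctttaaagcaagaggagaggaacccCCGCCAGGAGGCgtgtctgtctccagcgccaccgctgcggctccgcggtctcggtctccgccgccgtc
Gabra5 (fell), minus strand, chr7:57510060-57510309: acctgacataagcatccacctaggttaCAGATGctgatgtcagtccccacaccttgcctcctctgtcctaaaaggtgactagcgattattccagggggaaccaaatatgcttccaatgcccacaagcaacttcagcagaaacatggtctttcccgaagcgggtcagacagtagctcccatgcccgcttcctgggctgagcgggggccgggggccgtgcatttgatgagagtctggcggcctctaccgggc
Gabra2 (fell), minus strand, chr5:71095850-71096099: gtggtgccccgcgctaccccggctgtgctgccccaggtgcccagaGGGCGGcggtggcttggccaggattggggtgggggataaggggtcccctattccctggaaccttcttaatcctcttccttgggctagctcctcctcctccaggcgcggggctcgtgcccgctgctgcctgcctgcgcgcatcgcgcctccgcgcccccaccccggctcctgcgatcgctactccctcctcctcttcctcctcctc
Glra3 (rose), plus strand, chr8:55940168-55940417: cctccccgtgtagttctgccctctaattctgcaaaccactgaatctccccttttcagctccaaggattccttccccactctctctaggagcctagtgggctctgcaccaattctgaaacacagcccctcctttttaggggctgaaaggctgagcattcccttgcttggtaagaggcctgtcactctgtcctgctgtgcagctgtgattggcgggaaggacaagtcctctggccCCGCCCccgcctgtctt
The Grik2 window held the CTCF core, which 5 of the 39 windows of subunit genes held (12.8%), against 7.17% of the 32851 windows of all genes. A stricter core with A right after the CC, whose matches are a subset of the first, was in 0 of the 39 and in 2.07% of all. The E-box stood in the Gabra5 window, and in 2 of the 39 against 14.4% of all. The GC box stood in the Gabra2 and Glra3 windows, and in 20 of the 39 (51.3%) against 32.7% of all. The median GC content of the windows was 60.4% for subunit genes and 52.4% for all. A match says only that these letters are present.

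AMPA receptors are tetramers of the subunits GluA1 to GluA4, encoded by Gria1 to Gria4. Gria1 (chromosome 11, 57011387 to 57330244, plus strand) had 1038.03 and 513.90 normalized counts in Ctcf-null libraries 1 and 2, against 1544.96 and 765.48 in controls 1 and 2. The groups overlapped, because pair 1 was higher than pair 2 in both genotypes, but in each pair the Ctcf-null library was lower. The log2 fold change was -0.52 (SE 0.09, edgeR adjusted p = 1.7e-04), and it was -0.51 and -0.53 in pairs 1 and 2. Gria4 (chromosome 9, 4417896 to 4796234) had 269.41 and 221.11 in Ctcf-null and 426.93 and 268.92 in control libraries. Its fall of 0.45 on the log2 scale (SE 0.13, adjusted p = 0.018) was larger in pair 1 (-0.60) than in pair 2 (-0.23), and it did not pass in DESeq2 (adjusted p = 0.31).

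Gria2 encodes the subunit whose edited form keeps AMPA receptors largely closed to calcium. It had 6979.85 and 3243.75 normalized counts in Ctcf-null and 7381.48 and 3659.80 in control libraries, a log2 fold change of -0.07 (95% interval -0.21 to 0.07). Gria3 had 542.35 and 307.37 in Ctcf-null against 533.67 and 325.20 in control libraries, and its log2 fold change of 0.03 turned to -0.02 with the authors' size factors. Neither gene passed. Levels per kilobase of annotated exon compare genes only roughly, as they depend on which exons the transcripts contain. In this measure Gria1 made up 23.9% and 23.6% of the AMPA receptor level in Ctcf-null and 30.0% and 28.9% in control libraries. Gria2 made up 62.5% and 58.0% in Ctcf-null and 55.7% and 53.8% in control libraries. Gria3 made up 7.66% and 8.66% in Ctcf-null and 6.35% and 7.54% in control libraries. The shares of these 3 genes did not overlap between genotypes, and those of Gria4 did. The shares of a family sum to 100% and so are tied to each other. Of 16 shares in the AMPA, kainate and NMDA families 6 did not overlap (37.5%). Other families were not counted, and shares have no counterpart over all genes. In normalized counts, 8 of the 43 subunit genes tested (18.6%) did not overlap between the 2 Ctcf-null and 2 control libraries, against 14.1% of all genes tested, so separation of this kind is common and was not read as a test.

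The kainate receptor genes Grik1 to Grik3 encode subunits that form channels on their own, and Grik4 and Grik5 encode high-affinity partners. Grik2 (GluK2, chromosome 10, 49094833 to 49788766, minus strand) had 511.95 and 391.19 normalized counts in Ctcf-null and 838.74 and 624.14 in control libraries. Both Ctcf-null libraries lay below both controls, and the log2 fold change was -0.64 (SE 0.10, edgeR adjusted p = 5.8e-05). Grik1 (GluK1, chromosome 16, 87895900 to 88290265) moved the other way, with 550.13 and 358.39 in Ctcf-null and 456.28 and 287.68 in control libraries. It rose by 0.35 on the log2 scale (SE 0.11, adjusted p = 0.041), at 0.33 and 0.36 in the pairs. The call of Grik1 was lost with the authors' size factors, in limma at either pseudocount and in DESeq2.

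Grik3 had 637.10 and 426.42 normalized counts in Ctcf-null and 629.72 and 435.27 in control libraries and did not pass. Its log2 fold change was 0.05 (95% interval -0.16 to 0.26), and -0.01 in limma. Grik4 was at -0.47 (adjusted p = 0.28) and Grik5 at -0.20 (adjusted p = 0.46). Of the kainate receptor level per kilobase, Grik1 made up 37.2% and 32.2% in Ctcf-null and 28.9% and 23.2% in control libraries, and Grik2 17.6% and 17.8% in Ctcf-null and 26.9% and 25.5% in control libraries. Neither share overlapped between genotypes. Both are among the 6 of 16 family shares counted above, and this too was not read as a test.

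NMDA receptors join the obligate subunit GluN1 (Grin1) with GluN2 or GluN3 subunits, and GluN2B (Grin2b) is the main GluN2 type before birth. Grin2b (chromosome 6, 135713233 to 136173511, minus strand) had 1875.25 and 865.00 normalized counts in Ctcf-null and 1331.49 and 669.17 in control libraries. Each Ctcf-null library was above the control of its pair, with a log2 fold change of 0.49 (SE 0.09, edgeR adjusted p = 1.9e-04), and 0.55 and 0.42 in pairs 1 and 2. Grin1 had 91.92 and 148.22 in Ctcf-null and 66.71 and 152.60 in control libraries (log2 fold change 0.25, 95% interval -0.12 to 0.62) and did not pass. The other tested genes of the class were Grin2a at 0.25, Grin2d at 0.36 and Grin3a at -0.37, none of which passed (adjusted p = 0.63, 0.65 and 0.15).

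Grin3a, whose product lowers the calcium flow of the receptor, made up 13.7% and 10.9% of the summed NMDA receptor level per kilobase in Ctcf-null and 20.1% and 19.2% in control libraries, without overlap. This share is another of the 6 of 16 family shares counted above. In normalized counts Grin3a overlapped between genotypes, at 178.19 and 87.47 in Ctcf-null and 206.35 and 151.35 in control libraries. Grin2b, which rose, averaged 57.7% of the same level, and shares are tied to each other. Among GluN2 genes per kilobase, Grin2b held 92.9% and 86.2% in Ctcf-null and 91.6% and 86.6% in control libraries. These shares overlapped between genotypes. Grin2a, whose product replaces much of GluN2B after birth, held 3.54% and 3.86% in Ctcf-null and 4.66% and 3.59% in control libraries. The annotated exons of Grin2b cover 24842 bases, so its level per kilobase depends on which of them the transcripts contain.

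**Figure D2:**
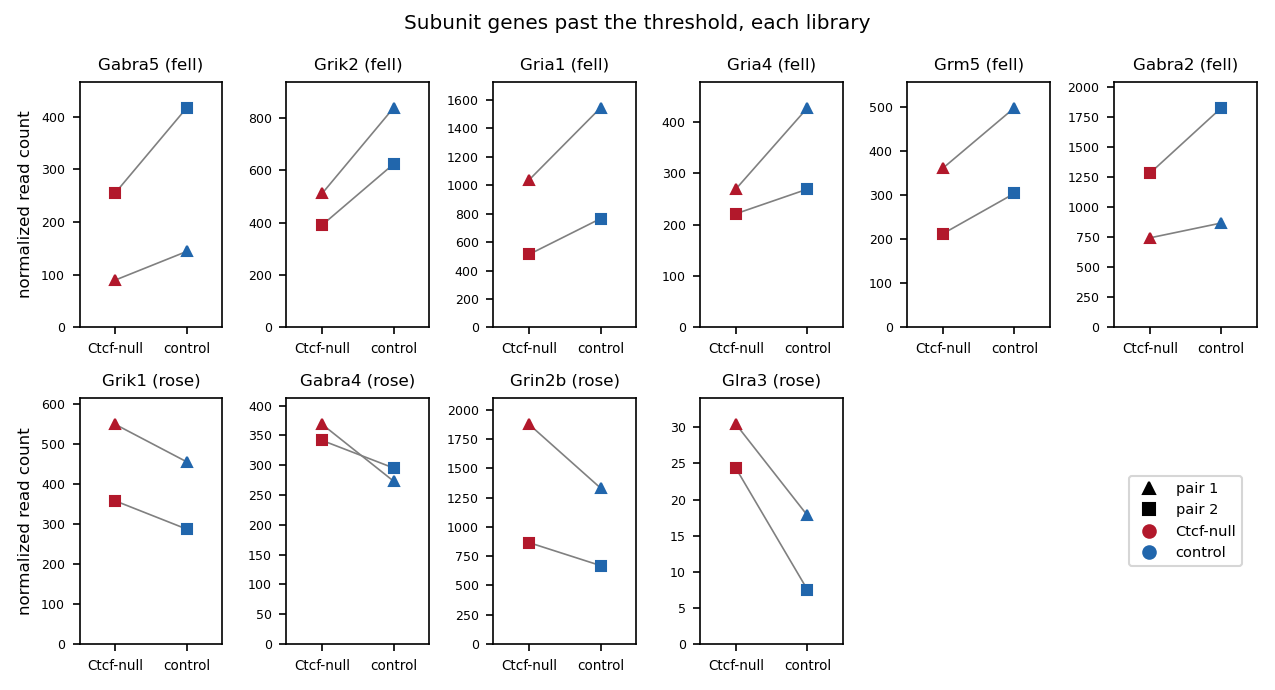
Normalized read count (y axis, from 0, scaled per panel) of 10 of the 11 subunit genes past the threshold in the Ctcf-null and control library of each pair. Lines join the libraries of a pair (triangles, pair 1, and squares, pair 2), and every line slopes the same way within a panel, as the fit selects for.

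Delta receptors bind cerebellins at synapses, and Grid1, the most abundant gene of that class, had 106.77 and 71.68 normalized counts in Ctcf-null and 92.50 and 66.29 in control libraries. Its log2 fold change was 0.23 (95% interval -0.17 to 0.62, adjusted p = 0.52), and neither gene of the class passed. Among the 8 metabotropic receptor genes, 1 fell and 0 rose (7.13% of all genes tested fell and 4.8% rose). Grm5, a receptor coupled to phospholipase C and present in progenitors, had 361.33 and 212.61 normalized counts in Ctcf-null and 498.09 and 303.94 in control libraries. Its groups overlapped across pairs, and it was lower in each pair (-0.40 and -0.47). The log2 fold change was -0.43 (SE 0.12, edgeR adjusted p = 0.014), and the call was lost in DESeq2 (adjusted p = 0.23). The group II receptors Grm2 and Grm3, which lower cyclic AMP, were both at 0.43 and did not pass (adjusted p = 0.20 and 0.14). Grm2 had 34.65 and 181.02 in Ctcf-null against 22.24 and 150.09 in control libraries, and Grm3 had 113.84 and 100.84 in Ctcf-null against 81.83 and 85.05 in control libraries, so both Ctcf-null libraries lay above both controls for Grm3 only. Grm4, Grm6, Grm7 and Grm8 lay between -0.46 (Grm4) and 0.66 (Grm6) and did not pass.

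GABA-A receptors combine alpha and beta subunits with a further type, often gamma, and the alpha subunit sets much of their affinity and drug response. Of 6 alpha genes, 5 were tested, and 2 fell and 1 rose (7.13% of all genes tested fell and 4.8% rose). Gabra5, linked to receptors outside the synapse, had 89.80 and 255.13 normalized counts in Ctcf-null and 144.09 and 416.51 in control libraries. The pairs were far apart, but within each the Ctcf-null library was lower (-0.62 and -0.66). The log2 fold change was -0.64 (SE 0.14, edgeR adjusted p = 0.0018), and in DESeq2 the adjusted p was 0.092. Gabra2, an abundant alpha subunit of the embryonic brain, had 745.29 and 1282.92 in Ctcf-null and 868.98 and 1827.40 in control libraries. It fell by 0.31 on the log2 scale (SE 0.09, adjusted p = 0.020), less in pair 1 (-0.16) than in pair 2 (-0.46), and the call was lost in DESeq2 and with upper-quartile factors.

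Gabra4 had 368.40 and 341.38 normalized counts in Ctcf-null and 273.06 and 295.19 in control libraries, with no overlap between genotypes. Its rise was 0.38 on the log2 scale (SE 0.12, edgeR adjusted p = 0.034), and the call was lost with the authors' size factors, in limma at either pseudocount and in DESeq2. Gabra3 was at 0.14 and did not pass, with opposite signs in the pairs (0.47 and -0.23). Of the alpha level per kilobase, Gabra2 held 33.1% and 40.7% in Ctcf-null and 39.3% and 43.6% in control libraries, and Gabra5 10.2% and 20.8% in Ctcf-null and 16.8% and 25.6% in control libraries. Gabra4 held 20.5% and 13.6% in Ctcf-null and 15.5% and 8.85% in control libraries. Each of these shares overlapped between genotypes and differed in 1 direction within both pairs.

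Of the beta genes, Gabrb1 was at 0.13 and Gabrb2 at 0.05, which turned to -0.07 in limma, and neither passed. Gabrg1 missed the threshold (-0.40, adjusted p = 0.12), although both Ctcf-null libraries (114.55 and 94.76 normalized counts) were below both controls (160.99 and 126.33). Gabrg3, Gabrd, Gabre and Gabrq had 9.72 to 66.29 normalized counts and lay between -0.46 and 0.37, and none passed.

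Most GABA-A genes lie in clusters in the genome, and in the chromosome 5 cluster neighbours moved in opposite directions in the paired fit. The order there is Gabrg1, Gabra2 (70957597 to 71095849), Gabra4 (71569749 to 71658308) and Gabrb1. Gabra2 fell and Gabra4 rose, with 474 kb between them, while Gabrb1, which starts head to head with Gabra4 and shares 46 exonic bases with it, did not pass. The calls of Gabra2 and Gabra4 were both lost in DESeq2, and each was called in only some alternatives (6 of 8 and 4 of 8). Gabra5, which fell, lies on chromosome 7 (57407672 to 57510059, minus strand). In the X cluster of Gabre, Gabra3 and Gabrq no gene passed. The labels name no strand information, so reads from overlapping genes cannot be told apart. Coordinates are those of GENCODE M21.

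**Figure D3:**
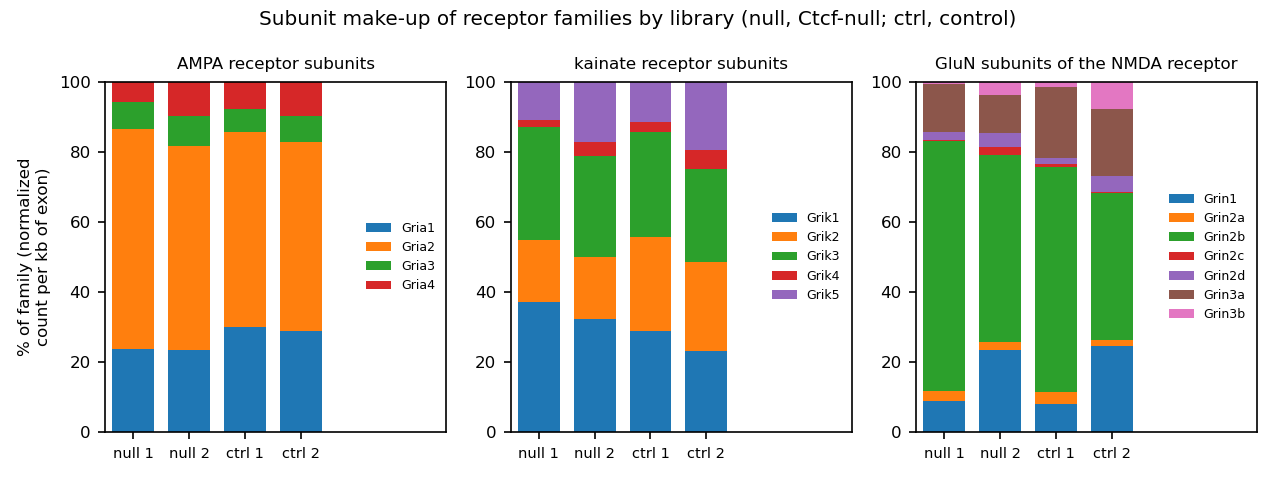
Share of each AMPA, kainate and NMDA receptor subunit gene in its family (y axis, percent of summed normalized counts per kilobase of exon) in the 2 Ctcf-null (null) and 2 control (ctrl) libraries. Gria1 and Grik2 take a smaller share in both Ctcf-null libraries than in both controls, while the share of Grin1 follows the pair.

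GABA-B receptors pair Gabbr1, which binds GABA, with Gabbr2, which couples to the G protein. Gabbr1 had 684.48 and 1375.25 normalized counts in Ctcf-null and 674.20 and 1452.16 in control libraries. Its log2 fold change was 0.02 (95% interval -0.16 to 0.20) and turned to -0.03 in limma. Gabbr2, with 149.91 and 151.86 in Ctcf-null and 111.18 and 132.58 in control libraries, missed the threshold (log2 fold change 0.38, adjusted p = 0.13).

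Among glycine receptor genes, Glra2, the embryonic alpha subunit, held 98.3% and 97.9% of the alpha level per kilobase in Ctcf-null and 98.1% and 99.1% in control libraries. It had 995.61 and 918.45 normalized counts in Ctcf-null and 993.51 and 1011.89 in control libraries, a log2 fold change of -0.01 (95% interval -0.19 to 0.17) that was 0.04 with upper-quartile factors. Glra3 (chromosome 8, 55940460 to 56130070) had 30.41 and 24.30 in Ctcf-null and 17.79 and 7.50 in control libraries, that is 43 and 20 reads in Ctcf-null against 20 and 6 in control libraries. It rose by 1.11 on the log2 scale (SE 0.37, edgeR adjusted p = 0.048). The call was lost with the authors' size factors, in limma with a pseudocount of 0.5 and after correction for exon length and GC content. DESeq2 gave it no adjusted p. Glrb, for the beta subunit, showed 0.16 (adjusted p = 0.45).

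The other 5 genes were too low to be tested. Glra1, the adult alpha subunit of the spinal cord, had 7 and 6 reads in Ctcf-null and 11 and 4 in control libraries, and Gabra6, a subunit of cerebellar granule cells, had 2 and 2 in Ctcf-null against 4 and 1 in control libraries. Grin2c had 3 and 6 reads in Ctcf-null against 4 and 1 in control libraries, and Grin3b 3 and 7 in Ctcf-null against 5 and 13 in control libraries. Of the annotated exon bases of Grin3b, 32.1% are shared with Tmem259 on the opposite strand. Glra4 had 0 and 1 reads in Ctcf-null and 0 and 0 in control libraries, which is under the limit of 3 reads that a count of 0 allows. That limit covers counting error only.

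Set side by side per kilobase of exon and averaged over the 4 libraries, Gria2 was highest (342 normalized counts per kb) and Glra2 next (311). Their order differed between pairs. Gria2 was at 449 in Ctcf-null and 475 in control of pair 1 and at 209 in Ctcf-null and 235 in control of pair 2, while Glra2 ranged from 292 to 321. Gria1 (160), Gabra2 (155) and Gabbr1 (135) were lower, and their ranges across libraries overlapped with each other. Grin1, at 11.8, was below Grin2b, at 47.7, in this measure.

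Differences between the pairs were larger than those between genotypes. The size of the log2 difference had a median of 0.65 for pair and 0.34 for genotype over the 43 genes, and of 0.85 and 0.19 over all genes tested. Pair 2 was higher than pair 1 for 9 subunit genes and lower for 19 in edgeR (28 of 43, 65.1%), while 74.9% of all genes tested were called (37.7% higher, 37.3% lower). All 4 AMPA receptor genes were lower in pair 2, by 0.62 (Gria4) to 1.19 (Gria2) on the log2 scale, and Gabrb2 was lower by 1.82. Grm2 was higher by 2.40, Gabrd by 1.88 and Gabra5 by 1.39. Of the 43 genes, 30 had the same sign of genotype difference in both pairs (69.8%, against 65.8% of all genes tested). These include all 11 called genes, as the fit selects for, and 19 of the 32 not called (59.4%). Across the 43 genes, which share the same 4 libraries and are not independent, pair 1 and pair 2 fold changes had a Pearson r of 0.67. Across the 32 not called r was 0.53, and across all genes it was 0.44.

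**Figure D4:**
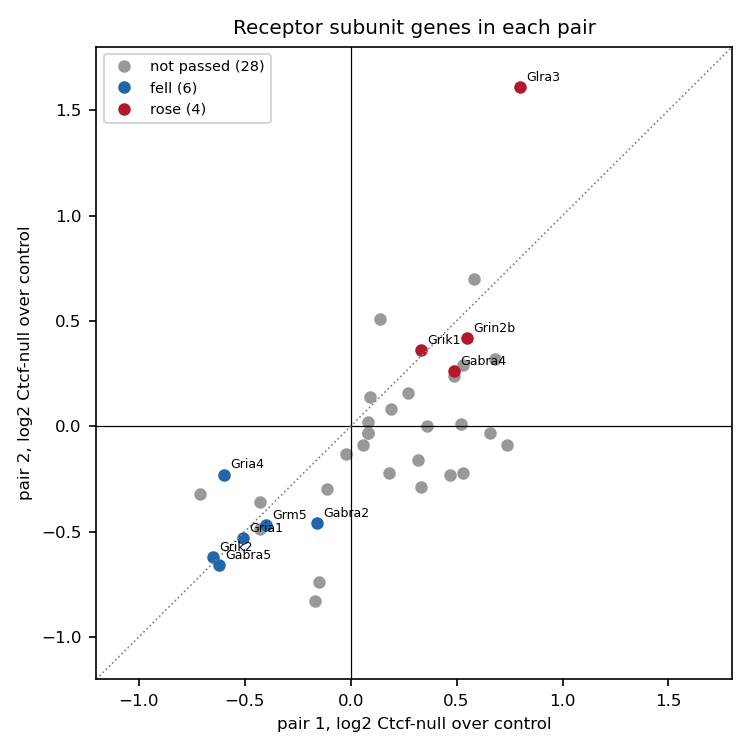
Log2 fold change (Ctcf-null over control) of 38 of the 43 tested subunit genes in pair 1 (x axis) and pair 2 (y axis). The 4 plotted genes that rose and the 6 that fell keep their sign in both pairs, as the fit selects for. The dotted line marks equal change.

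Genes whose products act with the receptors were read from the same fit. Of 22 partners of AMPA and kainate receptors, which set their trafficking and gating or cluster them, 8 fell and 0 rose (7.13% of all genes tested fell and 4.8% rose), with a median log2 fold change of -0.25 (-0.02 and -0.38 in pairs 1 and 2). The cornichon gene Cnih2, whose product is an auxiliary AMPA receptor subunit that slows the channel's closing, had 119.50 and 430.07 normalized counts in Ctcf-null and 125.41 and 1414.64 in control libraries. Its log2 fold change of -1.05 (SE 0.20, edgeR adjusted p = 6.4e-04) was -1.67 in pair 2 alone and -0.01 in pair 1 alone, and the call was lost in DESeq2 (adjusted p = 0.76). Gsg1l, another auxiliary AMPA receptor subunit gene, had 48.08 and 47.38 in Ctcf-null against 105.84 and 86.30 in control libraries (-0.97, SE 0.21), and it too missed the threshold in DESeq2 (adjusted p = 0.17). Cacng3, a transmembrane AMPA receptor regulator and the only 1 of the 8 that passed in DESeq2 (adjusted p = 0.028), had 144.96 and 123.92 in Ctcf-null against 215.24 and 297.69 in control libraries (-0.83, SE 0.16). For both genes all Ctcf-null values lay below all control values.

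The kainate receptor auxiliary genes fell as well. Neto1 had 41.72 and 23.08 normalized counts in Ctcf-null and 70.27 and 56.29 in control libraries (log2 fold change -0.88), and Neto2 had 537.40 and 388.76 in Ctcf-null against 635.95 and 574.11 in control libraries (-0.33). Shisa6 fell by 0.62 and Olfm3 by 0.76 on the log2 scale. Olfm1 was at -0.37, with 0.00 in pair 1 and -0.72 in pair 2. In edgeR the adjusted p of these 5 ranged over 0.021 to 0.045, and in DESeq2 over 0.18 to 0.52, so none passed there. The calls of Neto2 and Olfm3 were also lost with upper-quartile factors, and that of Neto2 without a filter on low counts. Cacng2, Cacng4, Cacng5, Cacng7, Cacng8, Cnih3, Shisa9 and the other 7 genes of the list that were not called lay between -0.43 and 0.30 and did not pass.

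Of 19 scaffold and cerebellin genes, Homer3, which links metabotropic receptors to calcium stores, fell by 0.85 on the log2 scale (SE 0.13, edgeR adjusted p = 4.3e-05), with 85.56 and 332.88 normalized counts in Ctcf-null and 142.31 and 669.17 in control libraries. Cbln1, a secreted ligand of delta receptors, rose by 0.83 (SE 0.19, edgeR adjusted p = 0.0037), with 99.70 and 150.65 in Ctcf-null against 51.59 and 98.81 in control libraries, a call that was lost in DESeq2. Of 16 partners of GABA-A, GABA-B and glycine receptors, Kctd12, an auxiliary subunit of GABA-B receptors, rose by 0.42 and Lhfpl3, a relative of the GABA-A receptor partner Lhfpl4, fell by 0.57 (edgeR adjusted p = 0.026 and 0.034). Neither call held in DESeq2, and that of Kctd12 was also lost in limma and with the authors' size factors. Each list had 1 gene that rose and 1 that fell (4.8% of all genes tested rose and 7.13% fell).

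Genes of transmitter handling moved in both directions (4.8% of all genes tested rose and 7.13% fell). Of 11 glutamate genes, the vesicular transporter gene Slc17a6 fell by 0.79, and 3 genes rose. Among them Glul, which makes glutamine, rose by 0.47, and Slc1a2, a glutamate uptake carrier, rose by 0.61. Slc1a2 had 1071.97 and 673.05 normalized counts in Ctcf-null and 671.53 and 509.07 in control libraries, with both Ctcf-null libraries above both controls. Of 11 GABA and glycine genes, the synthesis gene Gad2 fell by 0.64 and the breakdown gene Aldh5a1 by 0.60, while the breakdown gene Abat rose by 0.36. Of these 3, Gad2 alone passed in DESeq2. Of 8 chloride transporter genes, Slc12a5 rose and 0 fell. It encodes KCC2, which lowers chloride in maturing neurons, and had 130.81 and 176.16 in Ctcf-null and 88.94 and 123.83 in control libraries. Its log2 fold change was 0.59 (SE 0.16, edgeR adjusted p = 0.017), and the call was lost in DESeq2 (adjusted p = 0.42).

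**Figure D5:**
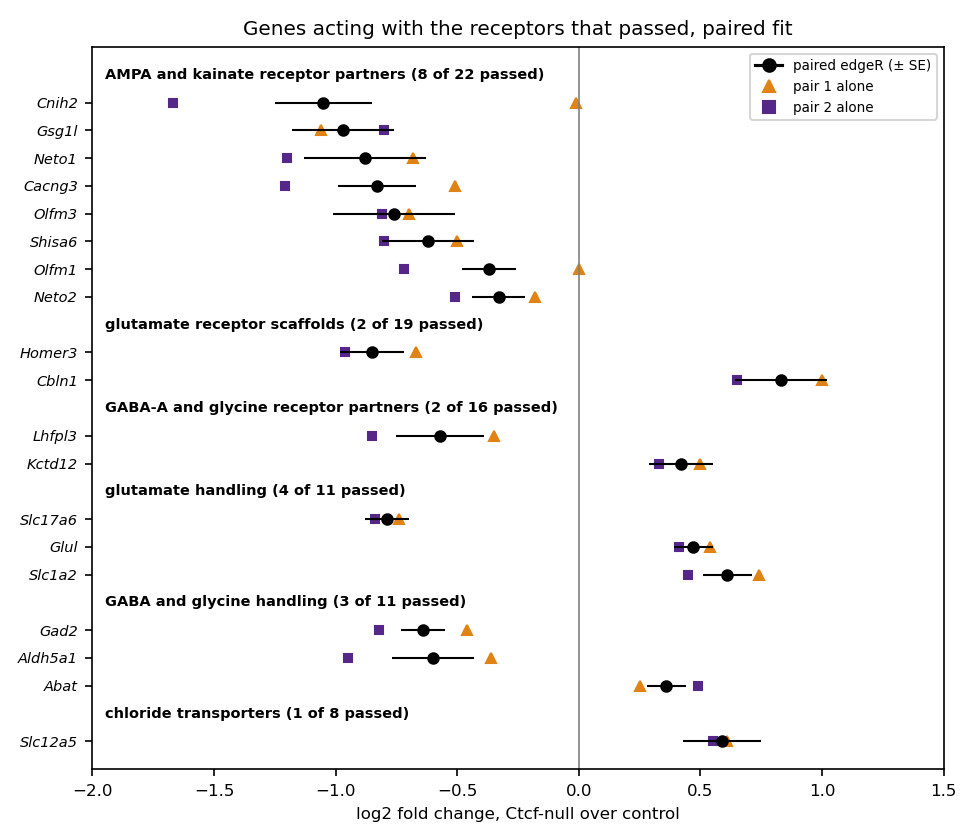
Log2 fold change (x axis, Ctcf-null over control) of 19 of the 20 genes acting with the receptors that passed in the paired fit, by list, ± SE. Triangles and squares are pairs 1 and 2 alone, and for Cnih2 and Olfm1 pair 1 lies at about 0.

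Markers of cell types and mitochondrially encoded genes were read from the same fit. Over all genes tested, 4.8% rose and 7.13% fell. Some genes, such as Gad2 and Slc17a6, stand in more than 1 list, so the lists are not independent. Of 10 general neuronal genes 2 rose and 2 fell (median 0.01). They summed to 232900 and 188900 normalized counts in Ctcf-null and 318400 and 231900 in control libraries, but Tubb3 held most of that sum, and the other 9 summed to 81260 and 73940 in Ctcf-null and 80500 and 81900 in control libraries. Of 15 genes of ventral telencephalon and interneurons 9 fell and 0 rose, with sums of 5531 and 14180 in Ctcf-null against 9000 and 28560 in control libraries. Of 10 excitatory cortical genes 7 fell and 0 rose, with sums of 36050 and 39720 in Ctcf-null against 48450 and 52210 in control libraries. Without Neurod6 the other 9 summed to 7350 and 14530 in Ctcf-null and 12740 and 22700 in control libraries. Of 8 radial glia genes 1 rose and 2 fell, with sums of 35350 and 61860 in Ctcf-null against 48690 and 76150 in control libraries. Without Fabp7 the other 7 summed to 12650 and 39660 in Ctcf-null and 12780 and 43460 in control libraries. Of 9 microglia genes 2 rose and 0 fell, with sums of 1432 and 3719 in Ctcf-null against 1154 and 3052 in control libraries, and of 6 choroid plexus genes 2 rose and 0 fell, with sums of 95310 and 35660 in Ctcf-null against 72760 and 24620 in control libraries (860.6 and 854 in Ctcf-null against 692 and 701.7 in control libraries without Ttr). Of 13 mitochondrially encoded genes 7 rose and 2 fell, with sums of 1003000 and 836500 in Ctcf-null against 858000 and 843700 in control libraries. Of 5 oligodendrocyte precursor genes 1 rose and 1 fell, with sums of 654.1 and 589.2 in Ctcf-null against 539.9 and 692.9 in control libraries. Without Pdgfra the other 4 summed to 99 and 238.1 in Ctcf-null and 105 and 479.1 in control libraries. Of 6 endothelial genes 0 passed in edgeR, with sums of 1681 and 3643 in Ctcf-null against 1986 and 4011 in control libraries. Every gene of these lists had reads in at least 1 library. The part of these shifts in the receptor results was not tested, and in whole tissue fewer cells of a type and less RNA per cell cannot be told apart.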

How the data were processed

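The authors deposited 1 table with a normalized read count, here called a signal, for each of 48795 genes in each library, per the file headers, and log2 fold changes per pair, used only to check the columns. The labels' protocols name dissected tissue kept in RNAlater and a Clontech Smart cDNA kit, which amplifies by PCR. The submitters' processing notes name STAR 2.5.3, DESeq2 and mm10, and the gene counter and annotation were not given in the sources used here. Every value was a whole multiple of its library's smallest step (100% within 0.005, with a relative allowance for rounding at high values), so whole reads were recovered. edgeR 4.0.16 (R 4.3.3) was run on them with TMM factors, filterByExpr (22158 genes left) and terms for pair and genotype, two-sided. Each SE is the size of a fold change over the root of its F. DESeq2 1.42.0 and limma 3.58.1 (on the deposited normalized values) were alternatives, and a gene given no adjusted p counted as untested.

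The pairing comes from the submitters' design text, which does not say what a pair shared. Same-numbered libraries deviated together from their group means (r = 0.923). The paired fit has 1 residual degree of freedom and leans on a spread shared across genes (prior 23.6). Lengths and positions are from GENCODE M21, which held all 48 gene identifiers, 43 with the same version. Dlg2 stood on 2 rows, and the more abundant was used. The members and lists were chosen with earlier results of these data known. Subunit genes are given in full where they passed, where they were the most abundant of a class or where the change was at least 1 on the log2 scale, and listed partner genes where they passed. Other genes named with values, such as Emx1, Eomes, Hoxb5, Hoxb8, Pax2, Grm2, Grm3 and Gabrg1, fall outside that rule and were chosen after their values were seen. Some genes that met the rule are counted but not reported here by name. List sums without their most abundant gene were added after seeing the data. The alternatives covered scaling, filters, tools, pseudocount, left-out libraries and the replicate block.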

Additional observations from a re-analysis of the deposited data

How the results depend on the processing

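The call counts depended on the pairing. With no replicate block, 0 genes rose and 0 fell in edgeR and in limma, subunit genes included, so none of the 11 subunit calls was kept. Leaving out each library in turn without the block gave 0 to 4 genes higher and 0 to 4 lower, and 0 subunit genes. With the block kept, leaving out a library leaves the other pair's value, with no test. No called subunit gene changed sign there, which the paired fit selects for. DESeq2 with the block called 289 genes higher and 543 lower, and 1 and 2 subunit genes (Grin2b, and Gria1 and Grik2). Of the subunit genes, these 3 passed in all 8 alternatives that kept the block. With the authors' size factors 2399 genes fell, and 2 subunit genes rose. In limma with the block 3 subunit genes rose with a pseudocount of 1, and 1 rose with 0.5. Subunit genes that had not passed changed sign near 0. With the authors' size factors these were Gria3 (-0.02), Gabrb2 (0.00), Gabbr1 (-0.03) and Grik3 (0.00). In limma with a pseudocount of 1, with and without the block, they were Gria3 (-0.03), Gabrb2 (-0.07), Gabre (-0.03), Gabbr1 (-0.03) and Grik3 (-0.01). With 0.5 the values were the same except Gabre (-0.04). Gabrb2 (-0.02) and Gabbr1 (0.00) turned in DESeq2. Glra2 turned with upper-quartile factors (0.04) and the filter at 1 CPM (0.02). After correction for exon length and GC content, chosen after seeing the data, Gria3 turned (-0.02), Gabrg1 passed and Glra3 did not. Over alternatives that kept the block, other called genes passed in 7 of 8 (Gria4, Gabra5 and Grm5), 6 of 8 (Gabra2), 4 of 8 (Gabra4 and Grik1) and 3 of 6 (Glra3). The cause of these changes was not tested. Depth limits the low genes: Grm6, with 4 to 24 reads a library, had an interval of -0.27 to 1.59.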
